A study of Oryctolagus cuniculus with 6 samples.

Results

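S100 proteins are small calcium-binding proteins built around EF-hand motifs, and most act as dimers inside the cell or as signals once released. S100A8, S100A9 and S100A12, the calgranulins, are abundant in the cytosol of neutrophils and monocytes and, once outside the cell, can engage the receptors TLR4 and RAGE. Other members belong to epithelium, such as S100A14 and S100P, or to connective tissue, glia, cartilage and muscle, such as S100A4, S100B and S100A1. Injured squamous epithelium is known from human and mouse to switch on calgranulins as well.

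The S100 genes are the rows of the gene table whose symbol starts with S100 and is followed by A, B, G, P or Z. There are 16 such rows among 29587. S100A8 and S100A12 head the set and were chosen by their large differences between the groups in earlier results of these data, so their values are given as a description without a test. The other 14 rows were taken by symbol alone and are read from a fit over all genes. One of them, S100PBP, encodes a binding protein of S100P and is not itself an S100 protein.

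The libraries are polyA RNA-seq of mucosa from the trachea of rabbits (New Zealand, 3 months old), with 3 libraries per group, numbered by replicate. In the high cuff pressure group a 3.0 mm tube was placed 13 cm deep and its cuff was kept at 35 cmH2O for 2 h. The labels do not say how the control rabbits were handled, give no genotype or time of sampling, and do not say which libraries came from separate animals, so p-values measure only the spread between these libraries. The labels call the material epithelial cells, yet the smooth muscle myosin gene MYH11 stood at 163 to 4081 CPM (counts scaled to library size, with the trimmed mean of M values) across the libraries, while the basal keratin gene KRT5 stood at 124.5 to 2374 CPM. Library totals ranged from 10501734 to 14415754 counts. High-cuff library 1 stood apart in its tissue markers: the summed level of 11 muscle genes was 469.4 CPM there and 3937 to 8937 CPM in the other 5 libraries, and that of 11 fibroblast genes was 333.2 CPM against 1227 to 2527 CPM. In these bulk samples fewer cells of a type and less RNA per cell cannot be told apart.

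In the fit of all 6 libraries the calgranulin genes had the largest log2 differences of the 13 S100 rows tested; with high-cuff library 1 and control library 1 both left out, an alternative added after seeing the data, S100A9 (2.90) lay below S100A6 (2.93). Together S100A8, S100A9 and S100A12 took 0.581% of all counts in high-cuff library 1 (Wilson 95% interval 0.577 to 0.586), 0.281% in library 2 (0.278 to 0.285) and 0.132% in library 3 (0.130 to 0.133). The controls gave 0.00747% (0.00698 to 0.00799) in library 1, 0.000678% (0.00055 to 0.000837) in library 2 and 0.0506% (0.0493 to 0.0519) in library 3. These intervals cover counting error only. The lowest library with high cuff pressure lay above the highest control, and control library 3 lay well above the other two controls.

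S100A8, the smaller subunit of calprotectin, had 6507, 2604 and 1439 counts in high-cuff libraries 1, 2 and 3, against 39, 16 and 67 counts in control libraries 1, 2 and 3. On the CPM scale these were 641, 306 and 109 against 3.33, 1.03 and 4.88. All 3 libraries with high cuff pressure lay above all 3 controls, and library 1 held the highest level. The fitted difference was 6.84 ± 0.87 on the log2 scale (SE), or 6.08 without high-cuff library 1.

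S100A12, a calgranulin found in human and rabbit but not in mouse, had 15955, 7640 and 6360 counts with high cuff pressure and 71, 25 and 214 counts in the controls. Its CPM levels of 1573, 899 and 482 stood against 6.07, 1.61 and 15.6. The groups did not overlap, and the libraries ranked within each group as for S100A8. The fitted difference was 6.99 ± 0.94 on the log2 scale, or 8.01 without control library 3.

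S100A9, the larger calprotectin subunit, had 43562, 19309 and 11164 counts with high cuff pressure. The controls held 738, 46 and 5500 counts, so on the CPM scale 4294, 2272 and 846 stood against 63.1, 2.96 and 401. The groups did not overlap, but the controls spanned a far wider range than for S100A8 or S100A12. The log2 fold change of 3.99 ± 1.44 (SE) did not pass over all genes (adjusted p = 0.119, quasi-likelihood test of edgeR with Benjamini-Hochberg adjustment). Without control library 3 it was 6.23 and did not pass either (edgeR adjusted p = 0.148). The authors' deposited table lists S100A9 as higher, with a q-value of 0.00668. It also lists S100A6 (q-value 1.63e-05), S100A10 (3.27e-05), S100A14 (0.00345) and S100A3 (0.0261) as higher. S100A8 and S100A12 are listed as higher too. Their differences in these same data picked them, so their q-values are not given.

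**Figure D1:**
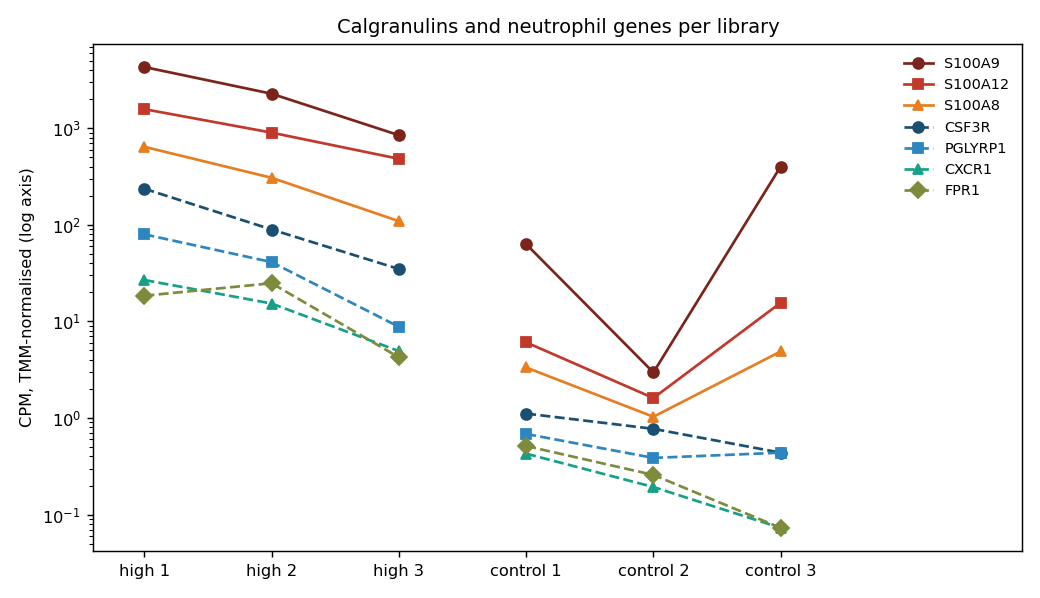
CPM of the calgranulins S100A9, S100A12 and S100A8 (solid lines) and of the neutrophil genes CSF3R, PGLYRP1, CXCR1 and FPR1 (dashed lines) in each library, on a log axis; lines only join points of the same gene within a group. S100A9 stood at 401 CPM in control library 3, where CSF3R stood at 0.437 CPM.

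The ratio of S100A9 to S100A8 spanned a narrower range with high cuff pressure than in the controls. Per length, as the ratio of FPKM (fragments scaled to transcript length and library size), S100A9 stood at 3.74, 4.15 and 4.34 times S100A8 in high-cuff libraries 1, 2 and 3. In the controls this ratio was 10.6 in library 1, 1.61 in library 2 and 45.9 in library 3. S100A12 stood at 1.96, 2.35 and 3.54 times S100A8 with high cuff pressure, and at 1.46, 1.25 and 2.56 times in the controls. The 2 groups thus overlapped in both ratios, and only the S100A9 to S100A8 ratio of control libraries 1 and 3 lay far above the rest.

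**Figure D2:**
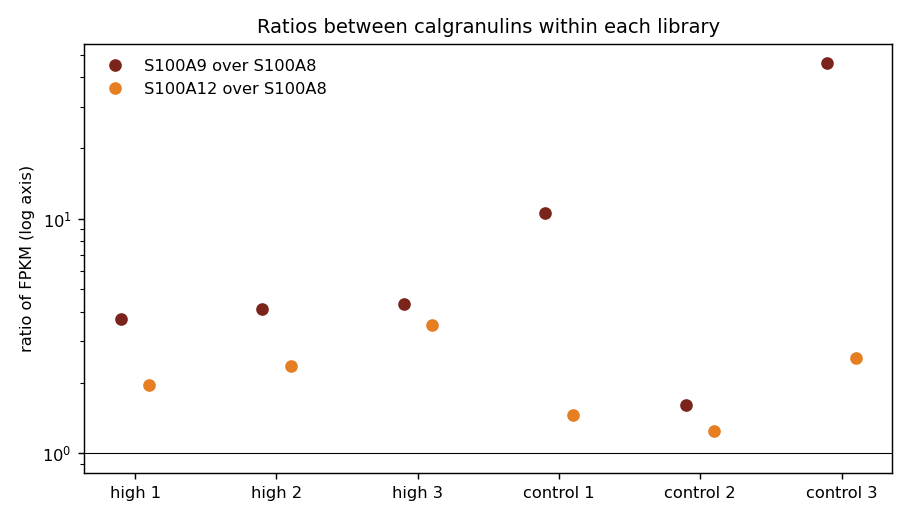
Ratio of the FPKM of S100A9 and of S100A12 to that of S100A8 within each library, on a log axis. The S100A9 ratio lay between 3.74 and 4.34 in the 3 libraries with high cuff pressure and at 1.61, 10.6 and 45.9 in the 3 controls.

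Neutrophil genes were higher in the same libraries. CSF3R, the receptor for granulocyte colony-stimulating factor, stood at 236, 89.3 and 34.9 CPM with high cuff pressure and at 1.11, 0.772 and 0.437 CPM in control libraries 1, 2 and 3. The libraries with high cuff pressure ranked as for S100A8, whereas control library 3 held the lowest CSF3R level and the highest S100A8 level of the controls. Per count of CSF3R there were 2.72, 3.43 and 3.13 counts of S100A8 with high cuff pressure, and 3.00, 1.33 and 11.2 in the controls, where CSF3R itself had only 13, 12 and 6 counts. For S100A9 the same quotient was 18.2, 25.4 and 24.3 with high cuff pressure and 56.8, 3.83 and 917 in the controls.

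Of 24 neutrophil markers 16 had a row and 10 were tested, of which 7 were higher and 1 was lower. Over all 13724 genes tested, 3.67% were called higher and 1.62% lower (edgeR adjusted p under 0.05). At an unadjusted p under 0.05 these shares were 15.6% and 13.6%, and DESeq2, which tested 20174 genes, called 7.01% and 5.93%. The chemokine receptor gene CXCR1 stood at 26.8, 15.3 and 4.93 CPM against 0.427, 0.193 and 0.0729 CPM, and the formyl peptide receptor gene FPR1 at 18.4, 24.8 and 4.24 against 0.513, 0.257 and 0.0729 CPM. CXCR1, FPR1, PGLYRP1, MMP9 and TREM1, all called higher, lay under 1 CPM in every control. These genes thus passed the filter only through the high cuff pressure group. The count of higher markers was 3 without control library 1. It was 0 without high-cuff library 2, control library 2 or control library 3 (edgeR). At an unadjusted p under 0.05 these fits gave 8 of 10, 9 of 11 and 9 of 11 markers as higher, where 11.9%, 10.4% and 9.93% of all genes were. DESeq2 on all libraries called 9 of 15. The summed level of the list was 138.8 to 518.5 CPM with high cuff pressure and 148.8 to 246.1 CPM in controls. This sum was led by MNDA, an interferon-inducible nuclear protein gene, which fell from 129 to 192 CPM in the controls to 41.2 to 57.2 CPM (log2 difference -1.71, edgeR adjusted p = 0.0188); the list had 0 lower genes with either high-cuff library 2 or any 1 control left out. Without MNDA the sum was 96.2 to 461 against 7.53 to 117 CPM. The granule genes MMP8 and MPO had 0 and 1 counts over all 6 libraries. The part of neutrophil content in the calgranulin levels was not tested.

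Other cell types can also hold calgranulin transcripts. Of 13 monocyte and macrophage markers tested 5 were higher and 0 lower, against 3.67% and 1.62% of all genes (8 and 0 at an unadjusted p under 0.05, against 15.6% and 13.6%, and 8 and 0 called by DESeq2), with a summed level of 269.1 to 289.6 against 93.95 to 167.7 CPM. The higher count was 0 without high-cuff library 2 or any 1 of the controls, and 2 without high-cuff library 3. CD14, a co-receptor of TLR4, stood at 77.1, 81.3 and 48.9 against 18.1, 18.02 and 6.71 CPM. MARCO, also called higher, lay under 1 CPM in every control and so passed the filter only through the high cuff pressure group. Log2 fold changes were positive for 10 of the 13 markers. The 3 negative ones were C1QA (-1.05), C1QB (-0.93) and C1QC (-0.80), which did not pass (edgeR adjusted p = 0.295, 0.408 and 0.463). Of 10 basal and squamous epithelial markers 2, KRT16 and SERPINB2, were higher and 0 lower (7 and 0 at an unadjusted p under 0.05, and 4 and 0 called by DESeq2), with a summed level of 1724 to 6028 against 854.1 to 1774 CPM. SERPINB2 had 0 counts in every control and so passed the filter only through the high cuff pressure group. Their count was 0 without high-cuff library 2, control library 2 or control library 3. The wound keratin gene KRT16 stood at 76.0, 87.7 and 69.8 CPM against 6.15, 3.02 and 2.41 CPM, so unlike the calgranulins it was not highest in high-cuff library 1. The part of these cells in the calgranulin levels was not tested.

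The genes whose pattern over the 6 libraries lay closest to S100A8 were CSF3R, the peptidoglycan recognition protein gene PGLYRP1, FGFBP1, CSF3 and IL1B. Their root mean square differences from it were 0.795, 0.816, 0.853, 0.870 and 0.913 log2 CPM, after each gene was centred on its own mean. For S100A12 they were CSF3R (1.19), CSF3 (1.20), FGFBP1 (1.21), PGLYRP1 (1.32) and MMP10 (1.36). S100A12 itself lay at 0.521 from S100A8, closer than any of these. The values were centred but not scaled, so like fold changes alone bring genes closer in this measure. No gene came as close to S100A9, for which the nearest was C1orf162 at 1.73, followed by CSF3 (1.80) and PLAT (1.83); S100A9 was added to this comparison after its values were seen.

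Of the 16 S100 rows 13 passed the filter on low counts. Of the 11 tested beside S100A8 and S100A12, 3 rose and 0 fell at an edgeR adjusted p under 0.05, where 3.67% of all genes tested were called higher and 1.62% lower. At an unadjusted p under 0.05 these were 5 and 0, where 15.6% and 13.6% of all genes were higher and lower. DESeq2, which tested 13 of these rows, called 4 higher with S100A3 included and 0 lower, against 7.01% and 5.93% of its 20174 genes. In 4 of the 11 the libraries with high cuff pressure all lay above the controls, which was so for 18.6% of all genes tested. The median log2 fold change of the 11 was 1.44, against -0.0093 over all genes tested.

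**Figure D3:**
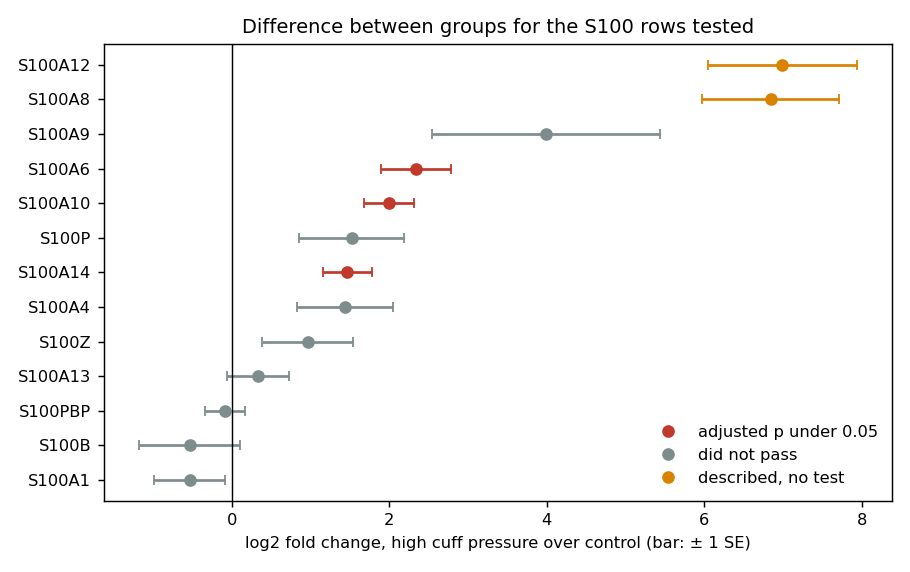
Log2 fold change of high cuff pressure over control for the 13 S100 rows tested, with bars of 1 SE. S100A12 and S100A8 stood near 7, S100A9 at 3.99 with the widest bar, and S100A6, S100A10 and S100A14, which passed the threshold, between 1.47 and 2.34.

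S100A6, or calcyclin, a widely expressed partner of annexins, rose. It stood at 586, 1206 and 1467 CPM in high-cuff libraries 1, 2 and 3 and at 301, 143 and 201 CPM in control libraries 1, 2 and 3. The groups did not overlap, and the library with the lowest level under high cuff pressure was library 1, where the calgranulins were highest. The log2 fold change was 2.34 ± 0.44 (SE, edgeR adjusted p = 0.0337). Adjusted p was 0.102 without high-cuff library 2, 0.0587 without high-cuff library 3, 0.0632 without control library 1, 0.130 without control library 2 and 0.151 without control library 3 (edgeR). The S100A6 row spans 46949 bp with a model length of 1082 bp, so reads of other transcripts in that stretch may be counted in it.

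S100A10, the p11 subunit that binds annexin A2, rose as well. Its levels of 264, 503 and 495 CPM with high cuff pressure lay above the 126, 105 and 84.8 CPM of the controls in all libraries. The log2 fold change was 2.00 ± 0.32 (SE, edgeR adjusted p = 0.0234). The edgeR adjusted p was 0.0874 without high-cuff library 2, and 0.0617, 0.112 and 0.121 without control libraries 1, 2 and 3. This row too is long, with a span of 41936 bp and a model length of 1339 bp.

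S100A14, an S100 protein of epithelium, also rose, with 40.02, 78.4 and 68.2 CPM against 24.5, 17.1 and 25.9 CPM. The groups did not overlap, and again high-cuff library 1 was the lowest of its group. The summed level of 11 secretory and ciliated markers was also lowest there, at 5677 CPM against 13050 to 40580 CPM elsewhere. Of these markers 0 were called with edgeR. At an unadjusted p under 0.05 there were 0 higher and 2 lower, near the shares of all genes (15.6% and 13.6%). DESeq2 called 0 and 2, against 7.01% and 5.93% of all genes. The part of these cells in the S100A14 level was not tested. The log2 fold change was 1.47 ± 0.31 (SE, edgeR adjusted p = 0.0443). It lost the call without high-cuff library 2 (adjusted p = 0.114) or library 3 (0.0823), without control library 1 (0.0972), 2 (0.161) or 3 (0.151), and with total-count scaling (1.07, adjusted p = 0.0539), which moved the median of all genes to -0.40.

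**Figure D4:**
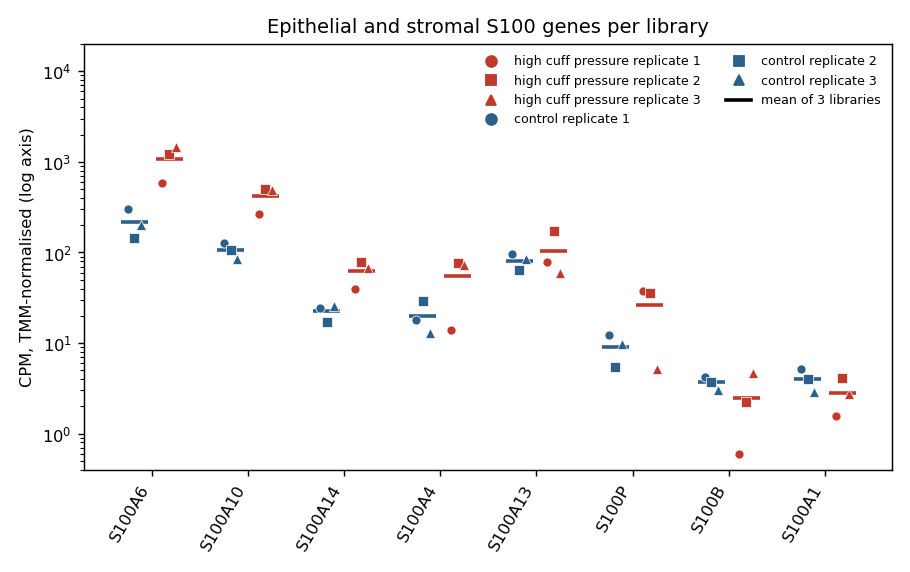
CPM of 8 epithelial and stromal S100 genes in each library, on a log axis, with short horizontal lines at the group means. The 3 libraries with high cuff pressure lay above the 3 controls for S100A6, S100A10 and S100A14 and overlapped them for S100A4, S100A13, S100P, S100B and S100A1.

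Of all pairs of tested S100 rows, S100A10 with S100A6 (0.343 log2 CPM) and S100A10 with S100A14 (0.381) lay closest (root mean square of centred values over 6 libraries). As above, like fold changes alone bring genes closer in this measure, so it does not show a shared pattern within the groups. The genes outside the family closest to S100A6 were AURKC (0.299), TIMELESS (0.304), KRT7 (0.308), ANXA8 (0.309) and DTYMK (0.310). Those closest to S100A10 were SNORA73 (0.101), SNORD22 (0.118), NME1 (0.144), LIG1 (0.157) and CENPN (0.179), and to S100A14 WDR4 (0.121), SF3B5 (0.129), ITPA (0.131), SNRPF (0.142) and POC1A (0.162).

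S100P, an epithelial member named from placenta, stood at 37.2 and 36.0 CPM in high-cuff libraries 1 and 2 but at 5.23 CPM in library 3, below all 3 controls (12.1, 5.47 and 9.69 CPM). The log2 fold change of 1.52 ± 0.67 (SE) did not pass (edgeR adjusted p = 0.178); without high-cuff library 3 it was 2.01 and passed (edgeR adjusted p = 0.0480). S100A3, known from hair follicle, had 8, 8 and 19 counts with high cuff pressure and 4, 2 and 1 in the controls, too few for the filter. The groups did not overlap, and DESeq2, run on every gene with a count, gave it a log2 fold change of 2.57 ± 0.98 (SE, adjusted p = 0.0483), while edgeR without a filter gave 2.52 (adjusted p = 0.0769).

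S100A4, a marker of fibroblasts and leukocytes, stood at 13.8 CPM in high-cuff library 1 and at 77.0 and 72.8 CPM in libraries 2 and 3, against 18.2, 29.1 and 12.9 CPM in the controls. The group ranges overlapped through library 1. The log2 fold change of 1.44 ± 0.61 (SE) did not pass (edgeR adjusted p = 0.163); without high-cuff library 1 it was 1.90 and passed (edgeR adjusted p = 0.0187). The fibroblast and muscle sums given above were lowest in that same library, and their part in the S100A4 level was not tested. Of 11 fibroblast genes tested edgeR called 0 higher and 2 lower, against 3.67% and 1.62% of all genes tested. At an unadjusted p under 0.05 there were 0 higher and 4 lower, against 15.6% and 13.6%. DESeq2 called 0 and 3 of these 11, against 7.01% and 5.93%. Of 8 muscle genes tested edgeR called 0 in either direction, with 0 and 0 at an unadjusted p under 0.05. DESeq2 called 0 and 1 of 11 muscle genes. Both lower fibroblast calls were lost without high-cuff library 2 or any 1 of the controls.

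S100B, an S100 protein of glia, cartilage and fat, stood at 0.591, 2.24 and 4.70 CPM against 4.27, 3.73 and 3.06 CPM. The spread with high cuff pressure covered the whole range of the controls (log2 difference -0.54 ± 0.64 SE, edgeR adjusted p = 0.603). Markers of its source cells were present at unlike levels. Of the Schwann cell genes SOX10 stood at 1.18 to 13.4 CPM and ERBB3, which epithelium also expresses, at 40.01 to 142 CPM across the libraries. Of the cartilage genes the collagen gene COL2A1 stood at 0.296 to 0.684 CPM and the matrilin gene MATN1 at 20.98 to 89.3 CPM, and the fat gene ADIPOQ at 5.92 to 64.02 CPM; these 3 further genes were picked after their values were seen. Of 10 Schwann cell genes, 6 chondrocyte genes and 5 adipocyte genes tested, 0 were called in either direction with edgeR. At an unadjusted p under 0.05 there were 2 higher and 1 lower among the Schwann cell genes, 1 and 0 among the chondrocyte genes and 0 and 0 among the adipocyte genes, where 15.6% and 13.6% of all genes were. The Schwann cell and chondrocyte counts are thus near the shares of all genes. DESeq2 called 1 and 1 of 10, 1 and 0 of 11, and 0 and 0 of 6. Of 6 dendritic and Langerhans cell genes tested edgeR called 0 (1 higher and 1 lower at an unadjusted p under 0.05, and 0 and 1 of 7 with DESeq2), with summed levels of 18.4 to 50.7 against 21.0 to 36.6 CPM.

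The remaining rows differed little between the groups relative to their spread. S100A1, of striated muscle and cartilage, stood at 1.58 to 4.12 against 2.92 to 5.21 CPM (log2 difference -0.54, edgeR adjusted p = 0.454). S100A13, which takes part in the release of FGF1, stood at 58.9 to 172 against 64.6 to 95.03 CPM (0.33, edgeR adjusted p = 0.604). Its direction turned with total-count scaling (-0.086), on the log2(FPKM + 1) scale (-0.19) and without high-cuff library 2 (-0.25). S100Z stood at 0.985 to 4.83 against 1.37 to 1.53 CPM (0.96, edgeR adjusted p = 0.297) and S100PBP at 13.7 to 17.9 against 14.36 to 18.3 CPM (-0.086, edgeR adjusted p = 0.849). S100A5 had 1, 1 and 0 counts with high cuff pressure and 0 in every control, and S100G, the intestinal calbindin, had 0 counts in all 6 libraries, where 3 counts, the approximate upper 95% limit of a count of 0, equal 0.208 to 0.286 CPM.

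Ranked by FPKM, a level per length, the family changed order between the groups. In the controls S100A9 led on average at 333 ± 472 FPKM (SD, n = 3), a mean set by control library 3. It was followed by S100A6 at 223 ± 63.4 and S100A13 at 219 ± 30.0, and none of these 3 neighbours was apart beyond their ranges. S100A10 (89.4 ± 11.6 FPKM) and S100A14 (81.5 ± 16.6) came next, lay apart from S100A13 above and S100P below, and overlapped each other. S100A12 and S100A8 had ranks 8 and 11, at 23.3 ± 22.6 and 11.4 ± 7.50 FPKM, in a run from S100P to S100A8 in which each neighbour overlapped the next.

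With high cuff pressure S100A9 (3901 ± 2819 FPKM), S100A12 (2228 ± 1285) and S100A8 (996 ± 785) took the first 3 ranks and S100A6 (875 ± 380) rank 4. Each of these overlapped its neighbour, and the next gene, S100A10 at 273 ± 85.5 FPKM, lay apart below S100A6. S100A13, at rank 3 in the controls, had rank 6 at 207 ± 107 FPKM. S100 reads of close relatives may be shared between genes, and how such reads were counted is not stated in the labels or files.

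**Figure D5:**
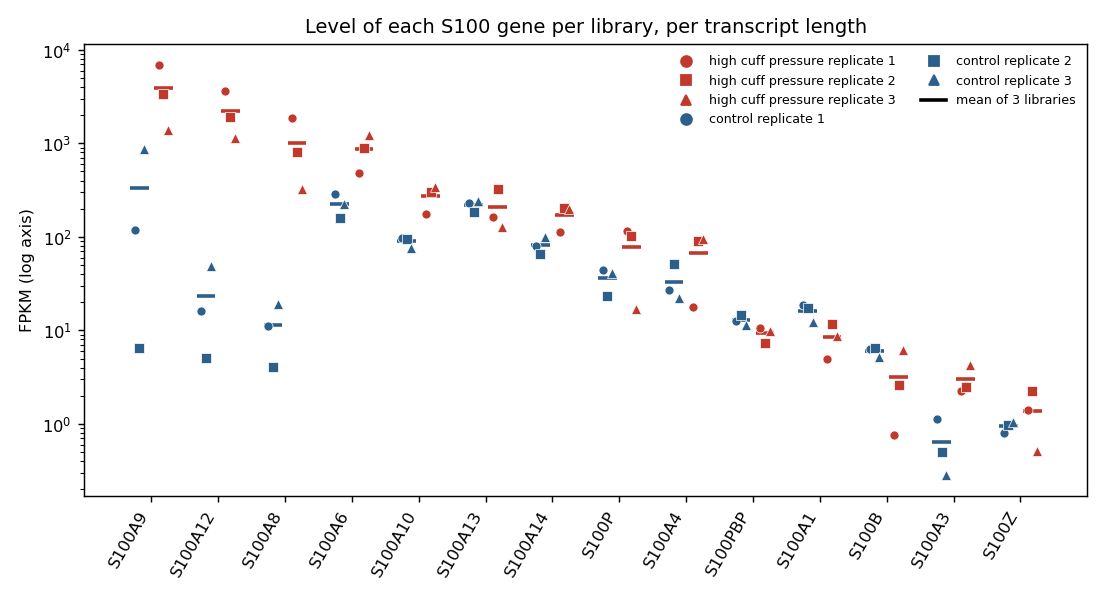
FPKM of the 14 S100 rows with counts in every library, on a log axis, ordered by the mean with high cuff pressure; short horizontal lines are means of 3 libraries. S100A9, S100A12 and S100A8 lay at 324 to 6959 FPKM with high cuff pressure and at 4.05 to 874 FPKM in the controls.

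On the deposited coordinates 11 of the rows lie together on chromosome 13, from S100A1 (38831297 to 38832049) to S100A10 (40164995 to 40206930). The calgranulins are neighbours within it: S100A8 at 39004122 to 39005042, S100A12 at 39017627 to 39018847 and S100A9, on the other strand, at 39032053 to 39034219. No label or file header states the genome build. Between S100A1 and S100A10 lie 35 other rows, of which 19 had 0 counts and 4 were tested. Of these 4, which carry no symbol and were looked up after the calls were known, 2 were called higher, against 3.67% of all genes tested. The 2 were ENSOCUG00000025593, at 3.25, 1.18 and 1.74 CPM against 0, 0 and 0.0729 CPM, and ENSOCUG00000005907, at 15.4, 3.77 and 2.65 against 0.0855, 0.129 and 0.219 CPM. Both were at most 0.219 CPM in any control, and so passed the filter only through the high cuff pressure group. The other 2 had log2 fold changes of -0.031 and 1.66 (edgeR adjusted p = 0.989 and 0.107). The 10 nearest tested genes with a symbol outside this stretch, 5 on each side, had log2 fold changes of -0.080 to 1.01 with edgeR adjusted p of 0.0785 to 0.964, so none passed.

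Genes through which S100 proteins act were also followed. Of 20 receptor and adaptor genes 18 had a row and 17 were tested, of which 5 were higher and 1 was lower, against 3.67% and 1.62% of all genes tested, with a median log2 fold change of -0.013. At an unadjusted p under 0.05 there were 6 higher and 3 lower, against 15.6% and 13.6% of all genes (edgeR). The lower ones were EMB, ALCAM (log2 difference -1.70) and NFKB1 (-0.54). TREM1, an amplifying receptor of neutrophils and monocytes, stood at 24.5, 13.0 and 10.2 against 0.769, 0.193 and 0 CPM (log2 difference 5.66 ± 0.88 SE, edgeR adjusted p = 0.0221). It lay under 1 CPM in every control and so passed the filter only through the high cuff pressure group. TREM1 is also in the neutrophil list and CD14 in the monocyte and macrophage list, so their calls are counted in both places. TLR4, the receptor of S100A8, rose by 1.82 on the log2 scale, from 5.98, 3.09 and 2.62 CPM to 15.97, 14.7 and 10.53 CPM (edgeR adjusted p = 0.0472). CD14 rose by 2.27 (edgeR adjusted p = 0.0336), the kinase gene IRAK1 by 1.34 (0.0336; 27.1 to 38.3 CPM in controls, 69.99 to 106 CPM with high cuff pressure) and the adaptor gene MYD88 by 0.93 (0.0480; 23.0 to 24.9 and 40.2 to 50.6 CPM).

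EMB, or embigin, a membrane protein of the immunoglobulin superfamily, fell from 38.4, 64.1 and 50.9 CPM to 21.7, 8.71 and 10.3 CPM (log2 difference -1.91 ± 0.40 SE, edgeR adjusted p = 0.0410). AGER, which encodes RAGE, stood at 12.5, 16 and 6.29 against 7.44, 3.09 and 2.77 CPM; the groups overlapped and its log2 fold change of 1.39 ± 0.51 (SE) did not pass (edgeR adjusted p = 0.125). The BSG row had 0 counts in all libraries. The list held 0 calls in either direction without high-cuff library 2, control library 2 or control library 3 (edgeR). At an unadjusted p under 0.05 each of these fits gave 5 higher and 2 lower of 17, where 11.9% and 10% (without high-cuff library 2), 10.4% and 8.86% (control library 2) and 9.93% and 7.94% (control library 3) of all genes were. It held 2 higher and 0 lower without high-cuff library 3, 1 and 0 without control library 1, and 5 and 2 without high-cuff library 1. DESeq2 on all libraries gave 5 and 2.

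Among 13 binding partners tested 0 passed with edgeR (1 higher at an unadjusted p under 0.05, and 0 of 14 with DESeq2), with a median of 0.21. ANXA1, an annexin that binds S100A11 in human cells, stood at 1286 to 1669 against 1190 to 1296 CPM (log2 difference 0.19, edgeR adjusted p = 0.681), and ANXA6 at 356 to 426 against 304 to 325 CPM (0.37, edgeR adjusted p = 0.292). Without high-cuff library 1 the count of higher partners was 2. Of the cornified envelope genes encoded in or used with the same gene complex, 6 of 18 had a row and 2 were tested. TGM1, a transglutaminase of that envelope, rose from 1.97, 0.708 and 0.510 to 9.96, 10 and 15.2 CPM (log2 difference 3.48 ± 0.55 SE, edgeR adjusted p = 0.0227). Its adjusted p was 0.0766 without high-cuff library 2, 0.112 without control library 2 and 0.106 without control library 3. TGM3, the other gene tested, stood at 13.6 to 57.3 against 39.2 to 46.97 CPM and did not pass (log2 difference -0.15, edgeR adjusted p = 0.852). The fused-type S100 genes CRNN and TCHHL1 had 3 and 6 counts in all and FLG2 had 0.

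In the authors' deposited table of Gene Ontology terms, RAGE receptor binding held 8 genes, of which 4 were listed as higher: S100A8, S100A9, S100A12 and HMGB2. Toll-like receptor binding held 9 genes in the authors' deposited table, with S100A8, S100A9 and SAA3 listed as higher and TLR6 as lower. Both terms hold S100A8, and the first S100A12. The differences of these genes in the same data picked them, so the q-values of the terms are not given.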

How the data were processed

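PolyA RNA of tracheal mucosa was read on the DNBSEQ-T7 instrument, per the labels; libraries were grouped and numbered by their library names. Libraries are called high-cuff 1 to 3 and control 1 to 3. Control library 3 bears the title S4 and none is titled S3. StringTie 1.3.3b, HISAT2 2.0.4 and edgeR appear in the submitters' processing notes with no role; no label or header states the build, annotation or counting settings. The authors deposited raw counts and FPKM per gene; model lengths were derived as count over FPKM and library total. Their p-values, q-values and rich factor, a ratio, come from the authors' deposited tables and are printed as such; other gene numbers there are the authors' too. One deposited column of log2 fold changes was not used. Deposited tables of broad terms and pathways were not used.

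Counts were fitted with edgeR 4.0.16 in R 4.3.3: filterByExpr (13724 of 29587 genes), TMM, glmQLFit with robust estimation and glmQLFTest, Benjamini-Hochberg adjustment over all genes tested and a threshold of 0.05. SE is the log2 fold change over the square root of F. Log2 CPM use a prior count of 2. The chi-square per degree of freedom between libraries of a group was 56.1 to 137, so none was treated as a repeat. The script was tested on simulated counts.

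The members, the lists and the rule for named genes were chosen with earlier results of these data known. The rule names every S100 row, list genes past the threshold with a few set ones, and the 5 genes closest in pattern to S100A8, S100A12 and each other called S100 gene. Alternatives used DESeq2 1.42.0, limma 3.58.1 (voom, and trend on FPKM), other scalings and filters, the replicate number as a block, and each library left out. Leaving out together, from each group, the library farthest from the others was added after seeing the data. ANXA2 had no row with that symbol. One gene named by the rule is not reported here. The reference gene table matched none of the gene identifiers and was not used.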

Additional observations from a re-analysis of the deposited data

How the results depend on the processing

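Over 18 settings beside the reported fit, the log2 fold changes ran from 6.08 to 7.35 for S100A8, from 6.29 to 8.01 for S100A12 and from 2.90 to 6.23 for S100A9, which passed in 1 (log2(FPKM + 1), adjusted p = 0.0494). S100A10 passed in 12 of 18, S100A6, TLR4, IRAK1 and EMB in 11, S100A14 in 9, MYD88 in 6, CD14 in 13, and TREM1 and TGM1 in 15. The other S100 genes called higher, 3 in the reported fit, were 0 with the replicate block and with log2(FPKM + 1) without a filter, 5 with log2(FPKM + 1) and 0 to 4 with 1 library left out. The S100 receptor genes had 2 higher and 0 lower with the replicate block, 1 and 0 with unfiltered FPKM, 2 lower with total counts, DESeq2, log2(FPKM + 0.1) and the added pair left out, 3 lower with log2(FPKM + 1), and 0 to 5 higher and 0 to 2 lower with 1 library left out. Cornified envelope genes higher were 2 with unfiltered FPKM and 0 to 1 with 1 library left out; binding partners higher were 1 with the pair left out and 0 to 2 with 1 library.

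Over all genes, 503 higher and 222 lower became 198 and 46 with the replicate block, 1415 and 1196 with DESeq2, 811 and 784 with the pair left out, 127 higher with unfiltered FPKM, and 1241, 1748 and 1448 lower with total counts and with log2(FPKM + 1) and log2(FPKM + 0.1). With 1 library left out they were 0 to 1362 and 0 to 1261; both were 0 without control library 2 or control library 3 (edgeR; 1451 and 1387 higher, 1240 and 1109 lower at an unadjusted p under 0.05), and without high-cuff library 2 they were 3 and 1. The cause was not tested.

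The labels state no pairing of libraries by replicate number. Same-numbered libraries deviated from their group means with correlations of -0.277, -0.201 and -0.234, and none correlated best with its own number. Deviations within a group of 3 libraries depend on each other, so these values cannot decide whether the numbers mark a pairing. Directions turned for S100A13 (-0.086 with total counts, -0.19 and -0.20 with log2(FPKM + 1) and log2(FPKM + 0.1), -0.19 unfiltered, -0.25 without high-cuff library 2, within -0.25 to 0.62 with 1 library left out), S100PBP (0.018 without that library) and S100B (0.021 with the pair left out); none of these was called. Depth limits S100A3, S100A5, S100G and the calgranulin ratios of control library 2, where S100A8 had 16 counts.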

Other observations

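Control library 3 held S100A9 at 401 CPM, against 63.1 and 2.96 CPM in the other controls, with S100A8 at only 4.88 CPM. In a look made after this was seen, S100A9 was among 18 tested genes, 8 of them with a symbol, that had at least 10 CPM in control library 3 and at least 5 times the level of either other control (0.2 CPM added to each). The same rule gave 47 genes in control library 1 and 6 in control library 2. ITLN1 and ITLN2, the intelectins, which are lectins of mucus-secreting cells, led the 8, at 1098 and 268 CPM in control library 3. ITLN1 stood at 10.3 and 1.67 CPM in control libraries 1 and 2 and at 163, 67.9 and 2.12 CPM in high-cuff libraries 1, 2 and 3. ITLN2 stood at 4.79 and 0.386 CPM in those controls and at 38.5, 22.2 and 1.97 CPM with high cuff pressure. The sulfotransferase gene SULT1C3 and the calpain gene CAPN9 were at 244 and 87.2 CPM in control library 3. The neutrophil genes CSF3R and CXCR1 were at 0.437 and 0.0729 CPM there, the lowest of the 6 libraries.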
